A study of Mus musculus with 6 samples.

Results

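Receptors through which vasopressin, angiotensin II, endothelin, noradrenaline, serotonin and prostacyclin act on the artery wall were described in mouse aorta. The list names 9 genes, and 6 of them had a probe set that names that gene alone: Avpr1a, Agtr1a, Ednrb, Adra1b, Htr2b and Ptgir. Ednra, Adra1a and Adra1d were not analysed here. The 6 stand among 19752 genes that the array names through a probe set of 1 gene. Where a gene has several, the one chosen by the highest mean over the 6 arrays stands for it, and since each of the 6 receptors had 1, that mean decided nothing. The list was drawn up with results of these data known, so differences of its members are given as a description and not as independent evidence.

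RNA came from whole aortas of C57BL/6 mice aged 20 weeks, hybridised to 1 array per sample. The 3 ApoE-KO samples lack Apoe (apoe-/-), and the 3 DKO samples lack Apoe and Adora1, the adenosine A1 receptor gene (apoe-/- adora1-/-). Apoe loss, which raises plasma cholesterol and makes mice prone to atherosclerosis, was therefore shared by both groups, and no wild-type or Adora1-only aorta was compared. The series text speaks of 3 mice per genotype but calls the comparison group Adora1 knockouts, while every sample label gives Apoe, and the labels were followed. The comparison sets aortas lacking Apoe and Adora1 beside aortas lacking Apoe alone. Any other difference between the mice of these genotypes, in genetic background or breeding, cannot be told apart from the loss of Adora1.

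All 6 genes encode G protein-coupled receptors. Avpr1a, Agtr1a, Adra1b and Htr2b act mainly through Gq and phospholipase C, which release calcium and contract smooth muscle. Ednrb, the endothelin B receptor, releases nitric oxide from endothelium and can contract smooth muscle directly, and Ptgir, the prostacyclin receptor, acts through Gs and cyclic AMP to relax it.

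Promoter sequence is shown for Avpr1a, Ednrb and Htr2b, the 3 genes whose groups did not overlap. Each sequence holds the 250 bases before the start of transcription in RefSeq (build GRCm38.p6), read 5′ to 3′ along the gene's strand, at chr10:122448249-122448498 on the plus strand for Avpr1a, chr14:103843702-103843951 on the minus strand for Ednrb and chr1:86111981-86112230 on the minus strand for Htr2b. Capitals mark matches, on either strand, to TATAAA, to CCAAT, to GGGCGG, to CACGTG or to the CArG box, the serum response element of smooth muscle promoters, and no 2 matches overlap in these windows.
Avpr1a: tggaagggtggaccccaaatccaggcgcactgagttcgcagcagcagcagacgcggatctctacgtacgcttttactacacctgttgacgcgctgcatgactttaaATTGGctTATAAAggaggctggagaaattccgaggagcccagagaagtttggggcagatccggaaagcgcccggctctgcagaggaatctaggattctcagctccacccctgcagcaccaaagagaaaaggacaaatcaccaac
Ednrb: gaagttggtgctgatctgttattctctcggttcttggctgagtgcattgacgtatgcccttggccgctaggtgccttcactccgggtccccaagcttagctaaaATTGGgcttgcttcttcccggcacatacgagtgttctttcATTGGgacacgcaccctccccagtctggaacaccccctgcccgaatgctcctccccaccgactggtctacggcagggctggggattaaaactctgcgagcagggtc
Htr2b: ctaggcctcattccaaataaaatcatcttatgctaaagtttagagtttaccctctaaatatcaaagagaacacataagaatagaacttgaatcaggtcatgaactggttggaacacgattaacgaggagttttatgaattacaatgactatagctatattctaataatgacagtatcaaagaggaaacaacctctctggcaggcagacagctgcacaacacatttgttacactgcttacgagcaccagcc

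Avpr1a held 1 TATAAA match, from 137 to 132 bases before the start, and 1 CCAAT match just upstream of it, from 144 to 140 bases before the start. Ednrb held 2 CCAAT matches and Htr2b none of the 5 motifs. Genes whose groups overlapped held matches too, in windows not shown. Adra1b had 2 CCAAT matches in 1 window and 1 GGGCGG match in another, and Ptgir 2 GGGCGG matches. Of 32851 promoter windows of the same length, 12.4% held TATAAA, 33.8% CCAAT, 32.7% GGGCGG, 6.02% CACGTG and 1.47% a CArG box. The Avpr1a, Ednrb and Htr2b windows had a GC content of 53.6%, 56.8% and 37.6%, against a median of 52.4% over all windows. The letters shared by these windows are a description, and no measurement here bears on binding at them.

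The arrays were alike in scale, with medians between 8.01 and 8.02 on the log2 scale and correlations between 0.983 and 0.995 over 25254 probe sets. The smooth muscle genes Acta2 and Myh11 read at least 13.97 and 13.23 on every array and the endothelial gene Pecam1 at least 11.60, as the aorta label has it. Both replicate 3 arrays stood apart through lung epithelium genes: the mean of 5 such markers was 10.94 in ApoE-KO and 10.36 in DKO there, against 6.77 to 6.91 on the other 4 arrays. Differences without both replicate 3 arrays are therefore given below. Arrays with the same replicate number in the 2 groups deviated together, so the value with the replicate number as a block (a term of the model) is given beside the value without it.

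In the aortas, all 6 receptor genes had a lower mean in DKO than in ApoE-KO, and none passed at an adjusted p of 0.05 over all probe sets, with or without the block. The differences ran from -0.66 for Avpr1a to -0.08 for Adra1b, with a median of -0.25 where the median over all probe sets was -0.00. In 3 of the 6, Avpr1a, Ednrb and Htr2b, every DKO array lay below every ApoE-KO array, which held for 6.47% of all probe sets. In bulk tissue, fewer cells of a type and less RNA per cell cannot be told apart.

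**Figure D1:**
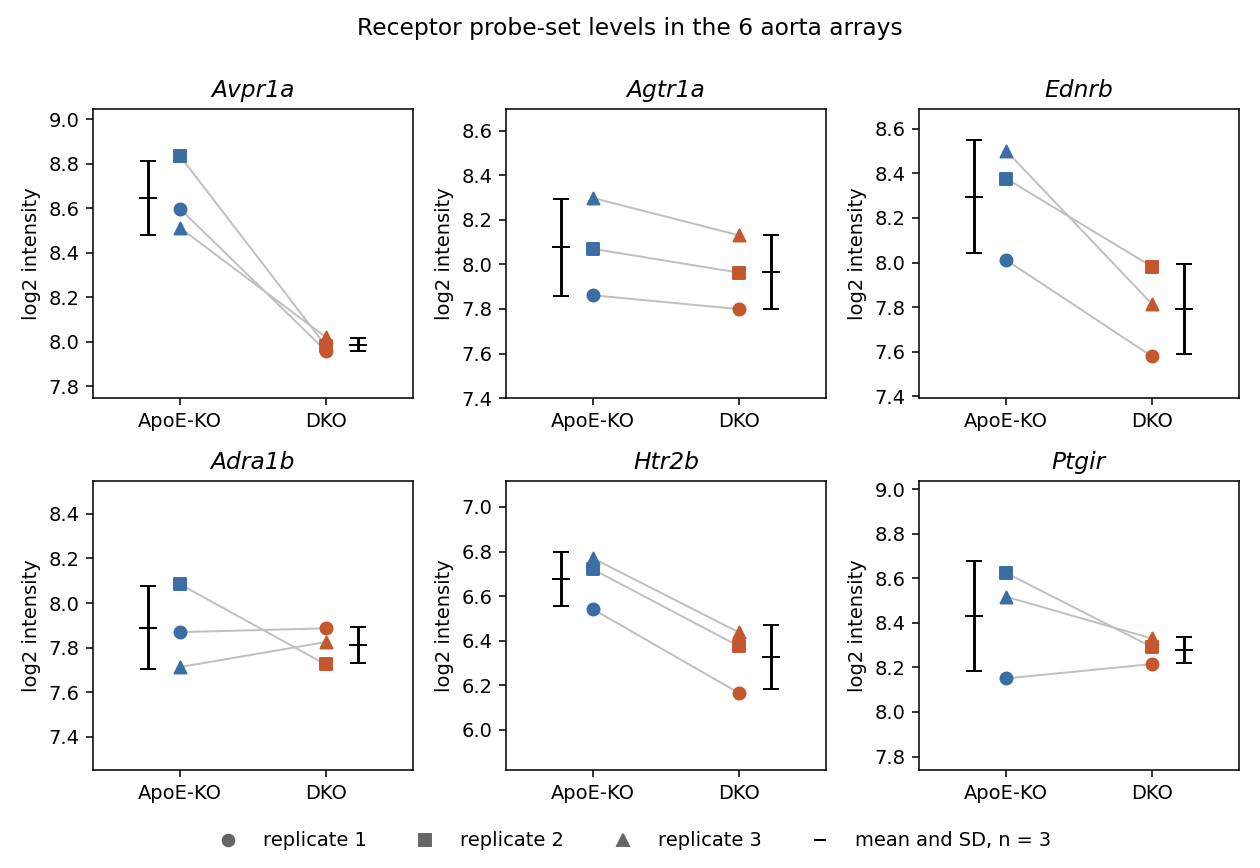
Log2 intensity (vertical axis, each panel spanning the same range) of the 6 receptor genes in ApoE-KO and DKO aortas. Symbols give the replicate number, grey lines join arrays of the same number, and black bars give mean and SD (n = 3). The groups are apart for Avpr1a, Ednrb and Htr2b and overlap for Agtr1a, Adra1b and Ptgir.

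Avpr1a, the V1a vasopressin receptor that contracts vascular smooth muscle, had the largest difference of the 6. Its log2 levels were 8.60, 8.83 and 8.51 in ApoE-KO replicates 1, 2 and 3, against 7.96, 7.98 and 8.02 in DKO. The lowest ApoE-KO array stood above the highest DKO array, and the DKO arrays lay close together. The means were 8.65 ± 0.17 and 7.99 ± 0.03 (SD, n = 3 each), a difference of -0.66 (95% interval -0.89 to -0.42; limma, unadjusted p = 0.000274, adjusted p = 0.467). With the replicate block the interval was -0.86 to -0.46 and the limma adjusted p 0.0503, just above the threshold. Per replicate number the DKO array was lower by a log2 difference of -0.64, -0.85 and -0.49, and the DKO to ApoE-KO intensity ratio was 0.633 (95% interval 0.538 to 0.745). Of all 25254 probe sets, 57 (0.226%) had a more negative difference. The difference was -0.74 without both replicate 3 arrays.

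Other genes of the vasopressin system were Avp, the hormone's own gene, Avpr1b, the pituitary receptor, and Avpr2, the kidney receptor. Their levels were 7.52 ± 0.07, 6.64 ± 0.04 and 6.96 ± 0.12 in ApoE-KO against 7.34 ± 0.08, 6.53 ± 0.06 and 6.64 ± 0.13 in DKO (SD, n = 3). The Avpr2 difference was -0.33 (95% interval -0.56 to -0.10; limma, adjusted p = 0.861), that of Avp -0.17 (adjusted p = 0.862) and that of Avpr1b -0.11 (adjusted p = 0.866). In each of these 3 genes every DKO array lay below every ApoE-KO array, which held for 6.47% of all probe sets. All 3 had low values, below the 40th percentile of probe-set means. None passed with the block (limma, adjusted p from 0.130 to 0.517).

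Agtr1a, the main AT1 receptor for angiotensin II in rodent vessels, was measured at 7.86, 8.07 and 8.30 in ApoE-KO, and at 7.80, 7.96 and 8.13 in the DKO arrays. The groups overlapped over most of their range, while each DKO array was slightly below the ApoE-KO array of the same number, by -0.06, -0.11 and -0.17. The difference was -0.11 (95% interval -0.43 to 0.21; limma, adjusted p = 0.935, and 0.442 with the block), and -0.08 without both replicate 3 arrays. Agtr2, the second angiotensin receptor, differed by 0.02, and Mas1, the receptor for angiotensin 1-7, by 0.12 (limma, adjusted p = 0.984 and 0.862). Both had low values, below the 40th percentile of probe-set means. Agt, the angiotensin precursor, had levels of 7.86 ± 0.06 in ApoE-KO and 7.63 ± 0.13 in DKO (SD, n = 3; difference -0.23, limma, adjusted p = 0.861). Ace, the converting enzyme, was at 12.47 ± 0.19 and 12.68 ± 0.15 (difference 0.22, limma, adjusted p = 0.862). The precursor and the converting enzyme thus differed in opposite directions, and neither passed. For Agt every DKO array lay below every ApoE-KO array (6.47% of all probe sets), while the groups overlapped for Ace. For Mas1 every DKO array lay above every ApoE-KO array (5.55% of all probe sets).

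Ednrb had levels of 8.01, 8.38 and 8.50 on the ApoE-KO arrays, and of 7.58, 7.98 and 7.81 on the DKO arrays. The groups were separated by a narrow gap, between the ApoE-KO replicate 1 array and the DKO replicate 2 array. The means were 8.30 ± 0.26 and 7.79 ± 0.20 (SD, n = 3 each), a difference of -0.50 (95% interval -0.87 to -0.14; limma, unadjusted p = 0.0137, adjusted p = 0.861). With the replicate block the interval narrowed to -0.70 to -0.31, with an adjusted p of 0.0721 (limma). Arrays of the same number differed by -0.43, -0.40 and -0.69, and without both replicate 3 arrays the difference was -0.41.

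The endothelin genes themselves lay close in the 2 groups. Edn1, the endothelial vasoconstrictor peptide, was at 9.34 ± 0.28 in ApoE-KO and 9.39 ± 0.09 in DKO (SD, n = 3), a difference of 0.05 (95% interval -0.29 to 0.40). Edn2 and Edn3 differed by -0.05 and -0.00, and Ece1, the enzyme that cuts the endothelin precursor, by 0.03. None of the 4 passed (limma, adjusted p from 0.951 to 0.999), and the groups overlapped in each. Edn2 had low values, below the 40th percentile of probe-set means.

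Adra1b, an alpha-1 adrenergic receptor that answers noradrenaline from sympathetic nerves, had levels of 7.87, 8.08 and 7.71 on the ApoE-KO arrays, and of 7.89, 7.72 and 7.82 on the DKO arrays. No order between the groups was seen: per replicate number the difference was 0.02, -0.36 and 0.11. The mean difference was -0.08 (95% interval -0.33 to 0.18; limma, adjusted p = 0.944, and 0.752 with the block), and it was 0.02 without ApoE-KO replicate 2 and -0.17 without both replicate 3 arrays. Th and Dbh, enzymes of noradrenaline synthesis, stood apart on 1 array: ApoE-KO replicate 3 read 9.26 for Th and 8.37 for Dbh, against at most 7.71 and 6.51 on the others. Their differences of -0.72 and -0.86 did not pass (limma, adjusted p = 0.870 and 0.866). Adra2c, the only other adrenergic receptor of the list with a probe set of its own, differed by 0.01. Dbh and Adra2c had low values, below the 40th percentile of probe-set means.

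Htr2b, the serotonin receptor 2B of endothelium, heart valve and pulmonary vessels, was measured at 6.54, 6.72 and 6.77 in ApoE-KO, and at 6.17, 6.38 and 6.44 in the DKO arrays. The values were low for this array, and Htr2b was the 1 of the 6 genes below the 40th percentile of probe-set means. The groups did not overlap, and the 3 same-number differences were nearly equal, at -0.38, -0.34 and -0.33. The means were 6.68 ± 0.12 and 6.33 ± 0.14 (SD, n = 3 each), a difference of -0.35 (95% interval -0.59 to -0.11; limma, unadjusted p = 0.00997, adjusted p = 0.861). With the replicate block the adjusted p was 0.104 (limma, interval -0.52 to -0.18), and without both replicate 3 arrays the difference was -0.36.

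Of the other 8 serotonin receptor genes, 6 were lower and 2 higher in DKO, and none passed. Htr2a, the contractile receptor of arterial smooth muscle, was at 9.67 ± 0.23 in ApoE-KO and 9.66 ± 0.44 in DKO (SD, n = 3; difference -0.01, limma, adjusted p = 0.996). Htr1b, an inhibitory receptor that also contracts some arteries, was at 10.87 ± 0.56 and 11.14 ± 0.23 (difference 0.27, limma, adjusted p = 0.928). Htr4 had the smallest p of the list, with a difference of -0.13 (limma, adjusted p = 0.862), and Tph1, a serotonin-making enzyme, differed by -0.19 (limma, adjusted p = 0.862). Htr4 and Tph1 had low values, below the 40th percentile of probe-set means.

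Ptgir was measured at 8.15, 8.62 and 8.52 in ApoE-KO, and at 8.22, 8.29 and 8.33 in the DKO arrays. ApoE-KO replicate 1 lay below all 3 DKO arrays and the other two above them. The difference was -0.15 (95% interval -0.46 to 0.15; limma, adjusted p = 0.902, and 0.440 with the block), and it ranged from -0.29 without ApoE-KO replicate 1 to -0.06 without ApoE-KO replicate 2. Without both replicate 3 arrays it was -0.13. Ptgis, the enzyme that makes prostacyclin, was abundant at 12.73 ± 0.22 in ApoE-KO and 12.82 ± 0.16 in DKO (SD, n = 3), a difference of 0.09 (limma, adjusted p = 0.943). Ptgfr, the prostaglandin F receptor, had the highest difference of its list at 0.37 (limma, adjusted p = 0.891). It was named after its value was seen, as were Htr2a, Agtr2 and Avpr1b.

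**Figure D2:**
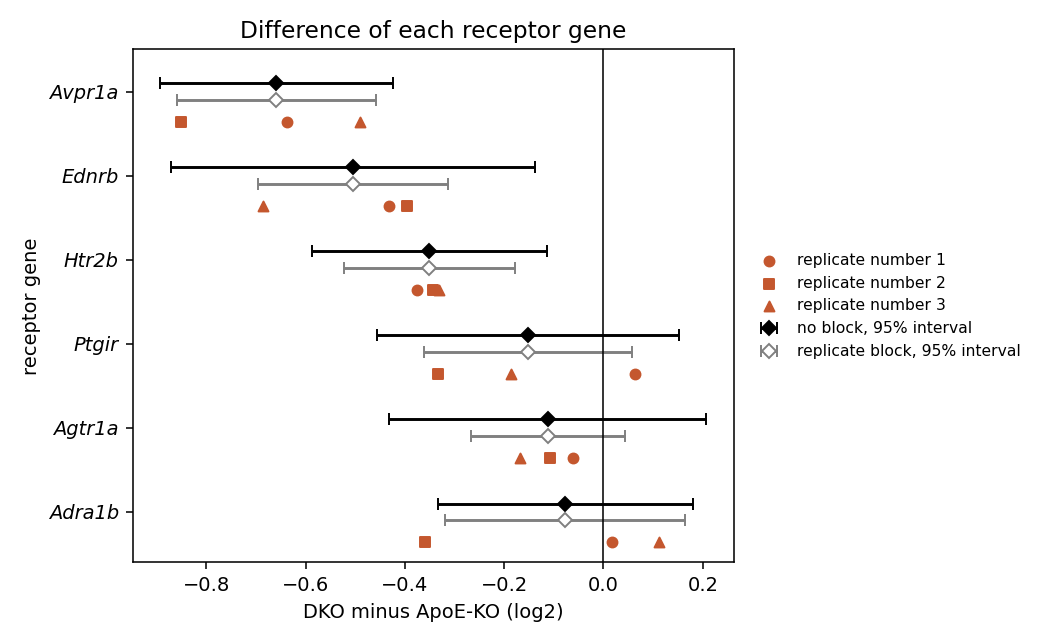
DKO minus ApoE-KO difference (log2, horizontal axis) of the 6 receptor genes. Diamonds with bars give the limma estimate and its 95% interval without (black) and with (grey, open) the replicate block, and coloured symbols give the 3 same-number differences. The 3 values of Htr2b lie together near -0.35, and those of Adra1b lie on both sides of 0.

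Read against the whole array, 3 of the 6 genes had an unadjusted p under 0.05 and a lower level in DKO without the block, where 2.68% of all probe sets did. With the block the number was also 3, where 6.10% of all probe sets did. At an adjusted p of 0.05, 0 of the 6 passed without the block (limma; 0% of all probe sets) and 0 with it (0.174%). In 4 of the 6, Avpr1a, Agtr1a, Ednrb and Htr2b, the DKO array was lower for every replicate number, as it was in 19.1% of probe sets. A lower mean in DKO as such was found in 50.7% of probe sets.

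Within groups, the replicate 1 array was the lowest of its group in both genotypes for 4 of the 6, Agtr1a, Ednrb, Htr2b and Ptgir, but not for Avpr1a or Adra1b. This held for 19.7% of all probe sets. The mean of 8 endothelial markers was also lowest on the replicate 1 arrays, at 9.74 in ApoE-KO and 9.82 in DKO, with the other arrays between 10.11 and 10.23. That of 8 smooth muscle markers was highest there, at 12.56 and 12.58, with the others between 12.33 and 12.43. The part of these levels in the receptor values was not tested.

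Between the groups, the list means of smooth muscle and endothelial markers lay close. Of 8 smooth muscle markers 2 were lower in DKO, with list means of 12.33 to 12.56 in ApoE-KO and 12.41 to 12.58 in DKO. Of 8 endothelial markers 2 were lower, with list means of 9.74 to 10.23 and 9.82 to 10.18. These 2 were Robo4, at -0.37 without overlap (6.47% of all probe sets), and Kdr, at -0.29 with overlap. The other endothelial markers were higher, by up to 0.21 for Tek. Lymphatic endothelium markers were lower in 5 of 5, with list means of 8.66 to 9.14 in ApoE-KO and 8.22 to 8.54 in DKO, without overlap. Mesothelial markers were higher in 6 of 6, at 7.22 to 7.59 against 7.83 to 8.28, also without overlap. White fat markers were lower in 5 of 6, at 9.55 to 10.25 against 9.02 to 9.82, and lower for every replicate number. Schwann cell markers were lower in 2 of 3, at 7.28 to 7.81 against 7.33 to 7.47. Of these, Cdh19 differed by -0.54, Sox10 by -0.04 and S100b by 0.01. Sympathetic neuron and chromaffin markers were lower in 4 of 5, at 7.11 to 8.29 against 7.00 to 7.22, with same-number differences of -0.20, -0.12 and -1.07. Brown fat markers were lower in 4 of 4, at 8.95 to 9.71 against 8.41 to 9.17, with same-number differences of -0.54, 0.07 and -0.91. Hepatocyte markers were lower in 3 of 4, at 7.43 to 8.01 against 7.14 to 7.45. Cyp2e1 carried most of this, with a difference of -1.65, while Ttr, Apoa1 and Alb differed by -0.095, -0.065 and 0.01. The albumin gene Alb read 5.58 to 6.01 in ApoE-KO and 5.58 to 6.18 in DKO. The groups overlapped in every marker list except the lymphatic and the mesothelial one. In the other 6 lists (fibroblast, macrophage, adrenal cortex, lung, cardiac and skeletal muscle) mean differences ran from -0.27 for lung to 0.05 for fibroblasts. Lung, cardiac and skeletal muscle markers were each lower in 5 of 5 and adrenal cortex markers in 5 of 6. Macrophage markers were lower in 3 of 6 and fibroblast markers in 2 of 6. The part of any of these cell types in the receptor differences was not tested.

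Among 64 other receptor genes of vasoactive hormones and transmitters, counting the receptor accessory genes Ramp1, Ramp2 and Ramp3, 57 had such a probe set. None passed in either fit, while 44 of all probe sets (0.174%) passed with the block. The 57 were spread around 0, with 31 lower and 26 higher in DKO, a median of -0.02 and a range of -0.47 to 0.37. In 8 of them every DKO array lay below every ApoE-KO array (6.47% of all probe sets), and in 2 every DKO array lay above (5.55%). An unadjusted p under 0.05 was found in 4 of the 57 (5.62% of all probe sets): Bdkrb1, Avpr2, Hrh1 and Cysltr2.

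Bdkrb1, the bradykinin B1 receptor induced in inflamed vessels, had the lowest difference of the 57. Its levels were 8.36, 8.99 and 8.74 on the ApoE-KO arrays against 8.19, 8.36 and 8.14 on the DKO arrays, so the groups were barely apart. Its difference was -0.47 (95% interval -0.85 to -0.09; limma, adjusted p = 0.861, and 0.118 with the block). Hrh1, the H1 histamine receptor, differed by -0.23, and Cysltr2, a leukotriene receptor, by 0.20 from a very low level of 4.66 ± 0.08 (SD, n = 3). P2ry6, a UDP receptor, differed by -0.23, Ptgdr, a prostaglandin D receptor, by -0.24 and Tacr1, the substance P receptor, by -0.15. For these 5 genes the limma adjusted p was 0.861 or 0.862. Cysltr2, Ptgdr and Tacr1 lay below the 40th percentile of probe-set means.

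Ligand and signalling genes lay on both sides of 0. Of 19 genes of the Gq, G12/13 and phospholipase C list, 12 were higher and 7 lower in DKO (median 0.02), and of 7 in the Gs and cyclic AMP list 5 were higher (median 0.03). Receptor kinases and arrestins, which switch receptors off, were listed with Agtrap, and of these 7 genes 4 were higher (median 0.00). Of 21 ligand genes and enzymes 11 were higher (median 0.01). None of these passed in either fit. The groups did not overlap, in either direction, in 3 of the ligand genes and enzymes and 2 of the Gq list. The same held for 0 of the Gs list and 1 of the receptor kinase list. Of all probe sets, 6.47% were lower and 5.55% higher in DKO without overlap.

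The highest of these differences was in Maob, a mitochondrial enzyme that degrades amine transmitters. Its levels were 10.04, 9.86 and 9.94 on the ApoE-KO arrays against 10.61, 10.39 and 10.24 on the DKO arrays. The groups did not overlap, with DKO higher, as was found for 5.55% of all probe sets. The difference was 0.47 (95% interval 0.20 to 0.73; limma, adjusted p = 0.839, and 0.0609 with the block). Plcb1, the phospholipase C beta 1 that Gq activates, had 9.20, 9.10 and 9.16 on the ApoE-KO arrays against 9.61, 9.44 and 9.37 on the DKO arrays, also without overlap. Its difference was 0.32 (95% interval 0.10 to 0.53; limma, adjusted p = 0.861, and 0.102 with the block). Other genes named from these lists were Plcb4 (a difference of 0.19), the protein kinase A subunit genes Prkacb (0.35) and Prkar1a (0.18), the receptor kinase gene Grk3 (0.20) and Agtrap, which promotes AT1 receptor internalisation (0.13). Their limma adjusted p ran from 0.862 to 0.893.

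**Figure D3:**
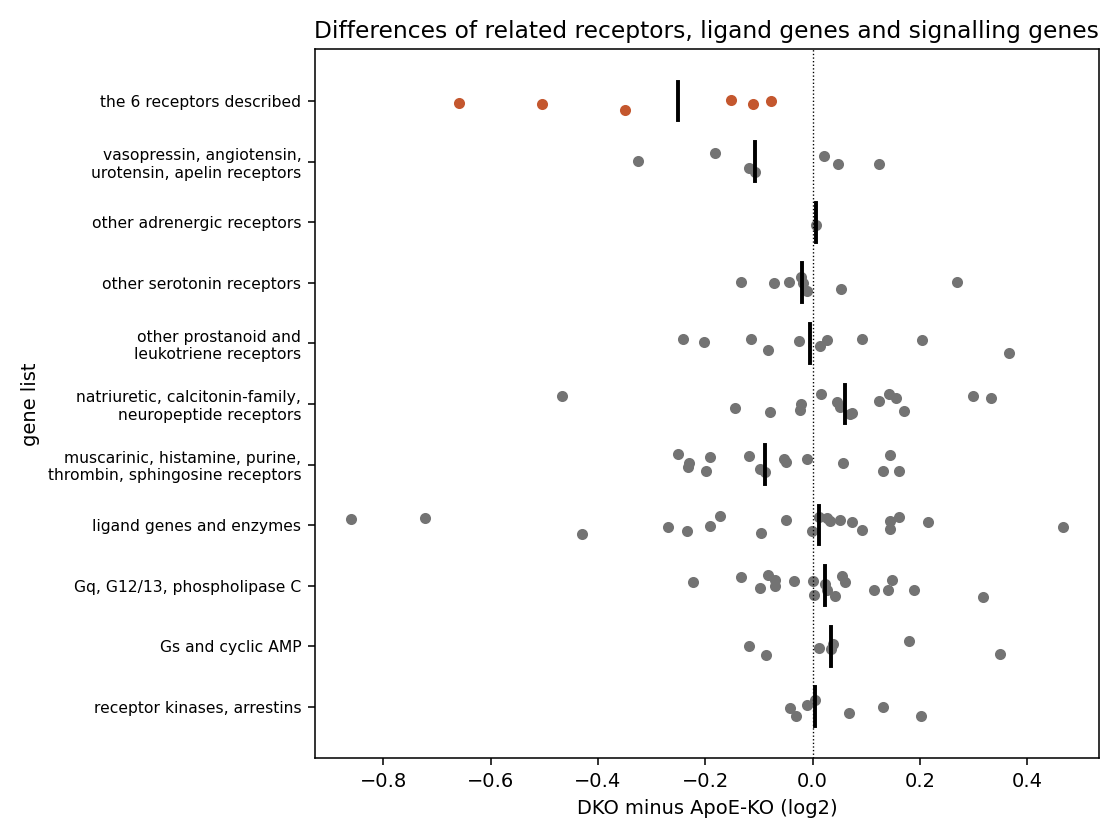
DKO minus ApoE-KO difference (log2, horizontal axis) of each gene, by list, with a black bar at each list's median. Orange points are the 6 receptors, all below 0, and grey points are 111 related genes, 53 below and 58 above 0. The vertical scatter within a list has no meaning.

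Genes whose profile over the 6 arrays was closest to that of Avpr1a were found by the root mean square difference of log2 values after removing each gene's mean, among 17454 named genes. They were Adamts15, a matrix protease (0.080), Cadm3, a cell adhesion protein (0.115), Ephx3, an epoxide hydrolase (0.117), Ppa1, a pyrophosphatase (0.120), and Ildr2, a membrane protein (0.134). Those closest to Ednrb were Vat1l (0.064), the serine protease gene Htra4 (0.082), Lgi4, a secreted protein that acts on Schwann cells (0.089), the lipogenic transcription factor gene Mlxipl (0.097) and the homeobox gene Zfhx4 (0.102). All 10 have a negative difference, between -0.70 and -0.38, because the group difference is part of the profile that was matched. The other 4 receptors varied too little for such a comparison, with an SD over the 6 arrays under 0.3.

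With each array left out in turn, the Avpr1a difference lay between -0.73 and -0.57, that of Ednrb between -0.65 and -0.40 and that of Htr2b between -0.42 and -0.27. Agtr1a ranged from -0.22 without ApoE-KO replicate 1 to -0.00 without ApoE-KO replicate 3, and Adra1b from -0.17 to 0.02. No receptor passed in any of these fits without the block. Such fits no longer balance the replicate numbers, so what same-numbered arrays share also moves these values.

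**Figure D4:**
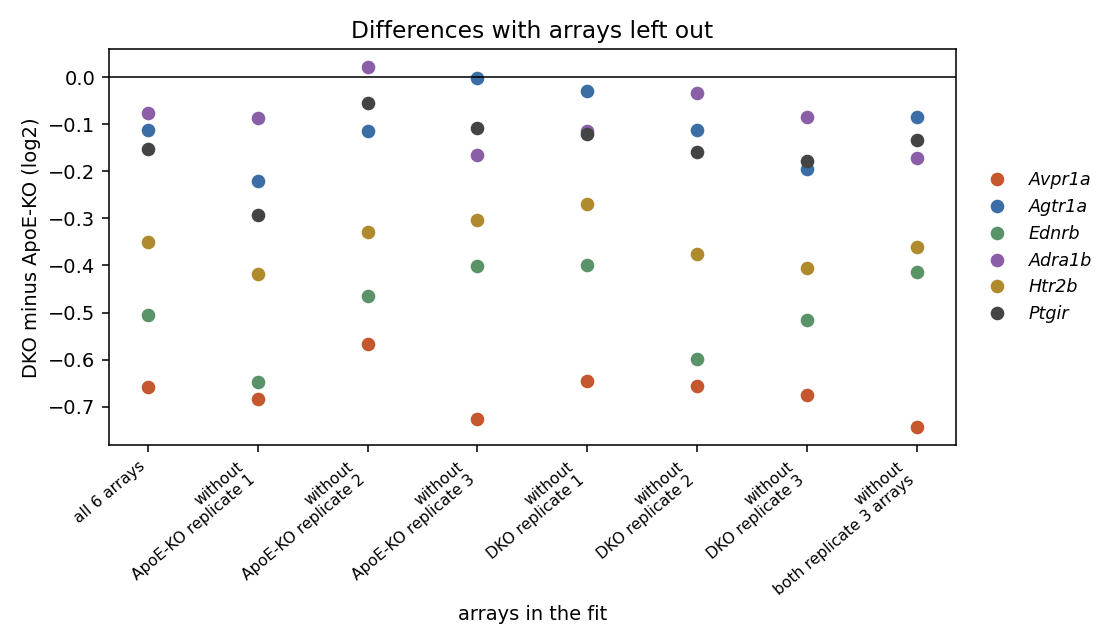
DKO minus ApoE-KO difference (log2, vertical axis) of the 6 receptor genes with all arrays, with each array left out and with both replicate 3 arrays left out (horizontal axis). Avpr1a, Ednrb and Htr2b stay at or below -0.27 in each setting shown, and Adra1b crosses 0 without ApoE-KO replicate 2.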

How the data were processed

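Aortic RNA of 3 ApoE-KO and 3 DKO samples was measured on 1 array each. The authors deposited log2 intensities of 25254 probe sets, and the submitters' processing notes name RMA, Partek and build mm9. The study's own tests took array batch as a factor, and no label gives the batch of each array. No source used here says whether a batch effect was also removed from the deposited values. The platform annotation names 1 gene for 21496 probe sets, several for 1565 and none for 2193. All probe sets were fitted with limma 3.58.1 in R 4.3.3 (lmFit, eBayes with trend; DKO minus ApoE-KO, two-sided, Benjamini-Hochberg over all probe sets, threshold 0.05, no filter on low values). Intervals are 95% intervals of that fit, and the number of arrays limits the precision: with 3 arrays per group, 0.1 is the smallest p that permuting the samples exactly can give.

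Deviations from the group means of same-numbered arrays correlated at 0.60, 0.50 and 0.64 over all probe sets, so the numbers were taken as pairs from the data alone, since no label says what they share. Members and lists were chosen with earlier results of these data known. Named are all measured members, the genes Avp, Agt, Ace, Edn1, Edn2, Edn3, Ece1, Th, Dbh, Tph1 and Ptgis of their ligands, the 2 genes of smallest p per list and the profile matches; a few others are said to be named after their values were seen. Alternatives were the replicate block, a filter at the 40th percentile, renewed quantile normalization, eBayes without trend, unmoderated models, array weights and arrays left out.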

Additional observations from a re-analysis of the deposited data

How the results depend on the processing

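Of 106 differences of the 6 receptor genes under the alternatives, 101 kept their direction and stayed above an adjusted p of 0.05 (limma), and 3 passed. With the replicate block 44 probe sets passed, and without pair 1, 2 or 3 of the arrays 415, 0 and 48 did, where the fit without pairing passed 0 (1419 at an unadjusted p under 0.05); the unmoderated linear model passed 1. Among the receptors, the block passed 0, 1 with probe sets under the 40th percentile also removed (Avpr1a, limma, adjusted p = 0.0390, of 139 probe sets) and 2 without pair 1 (Avpr1a and Ednrb, -0.67 and -0.54, limma, adjusted p = 0.0248 and 0.0398). Over the alternatives the adjusted p ran from 0.0248 to 0.999956 for Avpr1a and from 0.0398 to 0.999956 for Ednrb. Of the related genes, 1 passed with block and percentile filter (Maob) and 5 without pair 1 (Htr1b, Ramp1, Bdkrb1, Maob and Prkacb). Filters together with the block and left-out pairs were chosen after seeing the data. Adra1b was the 1 receptor whose difference changed sign, to 0.065 with the block without pair 2 and, with single arrays left out, between -0.17 and 0.021. Leaving out 1 array, 0 to 8 probe sets passed, the 8 without DKO replicate 3, and 0 receptors and 0 related genes. The cause of these shifts was not tested. Htr2b has no value above the 40th percentile, since it lies below it, and no receptor has a second probe set to compare.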
